A study of Mus musculus with 14 samples.

Results

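The MHC class II antigen presentation genes examined here were H2-Aa, H2-Ab1, H2-Eb1, Cd74, Ciita, H2-DMa, H2-DMb1, Cd86 and Cd80. They were taken by gene symbol from a table of read counts in mouse liver, and all 9 of 9 named genes were among its 25212 rows. The 14 livers came from diet-induced obese mice with no surgery (DIO, n = 5), mice in which the gallbladder was joined to the ileum so that bile drained there (GB-IL, n = 4) and mice given a Roux-en-Y bypass of the stomach (RYGB, n = 5). Each liver is labelled 8 weeks after its operation or, for DIO, after no surgery, and every mouse was a male C57BL/6 fed a high-fat diet. A figure caption of the paper gives 4 weeks for liver gene expression, so the sources differ on the time. The labels give no age, and the pair-fed and sham-operated mice of the study were not analysed here, so surgery itself and the new route of bile cannot be told apart. Each library was made from whole liver tissue of 1 mouse, and in such tissue fewer cells of a type and less RNA per cell cannot be told apart.

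MHC class II molecules display peptides from engulfed or internalised proteins to CD4+ T cells. The alpha and beta chains assemble in the endoplasmic reticulum with the invariant chain, proteases of the endosome trim that chain, and DM proteins then exchange its last fragment for a peptide. In liver these genes are used mainly by dendritic cells, B cells and macrophages, including the resident Kupffer cells, while CD80 and CD86 on such cells provide the second signal that a T cell needs. CIITA is the coactivator that switches the chain, invariant chain and DM genes on, and it acts through factors bound to short X and Y boxes in front of those genes.

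H2-Aa (chr17:34282744-34287823), H2-Ab1 (chr17:34257689-34269419), H2-Eb1 (chr17:34305867-34316674), H2-DMa (chr17:34119541-34139101) and H2-DMb1 (chr17:34153072-34160230) lie together in the mouse MHC on build GRCm38, with H2-Aa on the minus strand and the others on the plus strand. Ciita (chr16:10480059-10528418), Cd80 (chr16:38455561-38496335) and, on the minus strand, Cd86 (chr16:36603869-36666081) are on chromosome 16. All 9 genes, Cd74 on another chromosome included, are annotated as protein coding. Exons of Ciita shared 329 bases with Dexi and those of H2-DMa shared 360 bases with Brd2, each on the opposite strand. The strand setting of the counting is not given in the sources used here, so reads from those stretches may belong to either gene. H2-DMb1 has a near-identical neighbour, H2-DMb2, between which reads could be split, and its values are uncertain to that extent.

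RefSeq promoter windows on build GRCm38.p6 were at hand for 5 of the 9 genes (6 windows), and H2-Ab1, Cd74, Ciita and Cd86 had no entry in the table used. The 250 bases before each start were searched on both strands for TGATTGG (Y box), ACNGATG (X box) and TGACGTC (X2 box), letters chosen after these sequences were seen. H2-Aa, H2-DMb1 and H2-Eb1 held the Y box together with an X box or X2 box, which 0.785% of all 32851 promoters did. Singly, the Y box was in 7.23% of all promoters, the X box in 8.31% and the X2 box in 2.78%. The windows of H2-DMa and Cd80 held none of these letters, which says only that the letters are absent there. Their RefSeq starts lie inside the gene spans given above, so the bases before the annotated gene starts were not searched. The 3 sequences are shown because they hold letters of the kind of box through which CIITA is known to act. Each is the 130 bases that end just before the RefSeq transcript start, 5′ to 3′ on the gene's strand, with the matches in capitals.
H2-Aa: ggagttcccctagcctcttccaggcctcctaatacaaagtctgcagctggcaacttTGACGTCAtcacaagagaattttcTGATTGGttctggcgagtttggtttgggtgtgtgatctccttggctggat
H2-DMb1: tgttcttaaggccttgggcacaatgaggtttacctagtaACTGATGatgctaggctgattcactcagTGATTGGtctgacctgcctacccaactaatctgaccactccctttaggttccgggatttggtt
H2-Eb1: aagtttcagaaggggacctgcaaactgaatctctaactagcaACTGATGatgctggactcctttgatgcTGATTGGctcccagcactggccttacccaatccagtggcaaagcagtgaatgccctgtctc
They are chr17:34287824-34287953 (minus strand), chr17:34153061-34153190 (plus strand) and chr17:34305737-34305866 (plus strand). The H2-DMb1 stretch lies mostly inside the gene span given above, as its RefSeq start is downstream of the annotated gene start. The Y box began 50 bases before the start in H2-Aa, 63 in H2-DMb1 and 61 in H2-Eb1. In H2-DMb1 and H2-Eb1 the X box stood upstream of it, at 91 and 88 bases. In H2-Aa the capitals upstream of the Y box are the X2 box, matched on both strands in overlapping positions, and an X box match on the opposite strand began 232 bases before the start, outside the stretch shown. A match is a description of the letters and not evidence of binding.

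The libraries held 18223135 to 28656631 counts, and the values below are CPM, counts per 1000000 of a library's scaled total. The 4 GB-IL livers were not alike. In the comparison of GB-IL with DIO, edgeR's quasi-likelihood test called 465 of 14252 genes, none when GB-IL liver 1 or 2 was left out, 576 without liver 3 and 3572 without liver 4. GB-IL liver 3 stood apart for the class II genes, so results it touches are also given without it. The extraction notes name both a poly(A) and a total RNA library kit without saying which liver had which, and the part of the kit in any difference was not tested. The paper's methods instead describe total RNA amplified with an Ovation kit before library preparation, so the sources differ on the kit.

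The classical class II chains showed no difference between the groups that passed the test, and 1 GB-IL liver held most of their reads in that group. H2-Aa, the alpha chain of I-A, measured 65.4, 43.2, 43.4, 44.0 and 36.3 CPM in DIO livers 1 to 5. In GB-IL livers 1 to 4 it measured 36.2, 25.1, 239 and 48.9 CPM. In RYGB livers 1 to 5 it measured 46.5, 29.9, 22.8, 27.9 and 15.8 CPM. Thus GB-IL liver 3 was far above all other livers, GB-IL livers 1 and 2 were below the DIO range, and 4 of 5 RYGB livers were below every DIO liver. H2-Ab1, the beta chain of I-A, measured 49.6, 29.9, 35.4, 37.8 and 30.1 CPM in DIO. It measured 29.5, 26.0, 236 and 36.0 CPM in GB-IL and 42.5, 25.4, 17.6, 23.7 and 12.7 CPM in RYGB. The order of the livers was much as for its partner, with GB-IL liver 3 at the top and RYGB liver 5 at the bottom. H2-Eb1, the beta chain of I-E, measured 51.2, 32.5, 37.6, 32.6 and 27.5 CPM in DIO, 24.5, 25.9, 233 and 39.4 CPM in GB-IL and 36.1, 22.9, 18.2, 22.0 and 11.8 CPM in RYGB. The C57BL/6 strain makes no I-E protein on its cells, since its I-E alpha gene is inactive, and H2-Ea-ps was not used here.

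The 3 chains kept close to a fixed ratio within each liver. H2-Aa to H2-Ab1 counts ranged from 0.963 to 1.45 over the 14 livers, and H2-Eb1 to H2-Ab1 from 0.831 to 1.10. In GB-IL liver 3 the ratios were 1.02 and 0.990, inside those ranges, so its high level was shared by all 3 chains. Pearson's r between H2-Aa and H2-Ab1 on the log2 CPM scale was 0.987 over 14 livers and 0.964 over the 13 livers without GB-IL liver 3. These are descriptions, since each pair of values comes from 1 library.

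**Figure D1:**
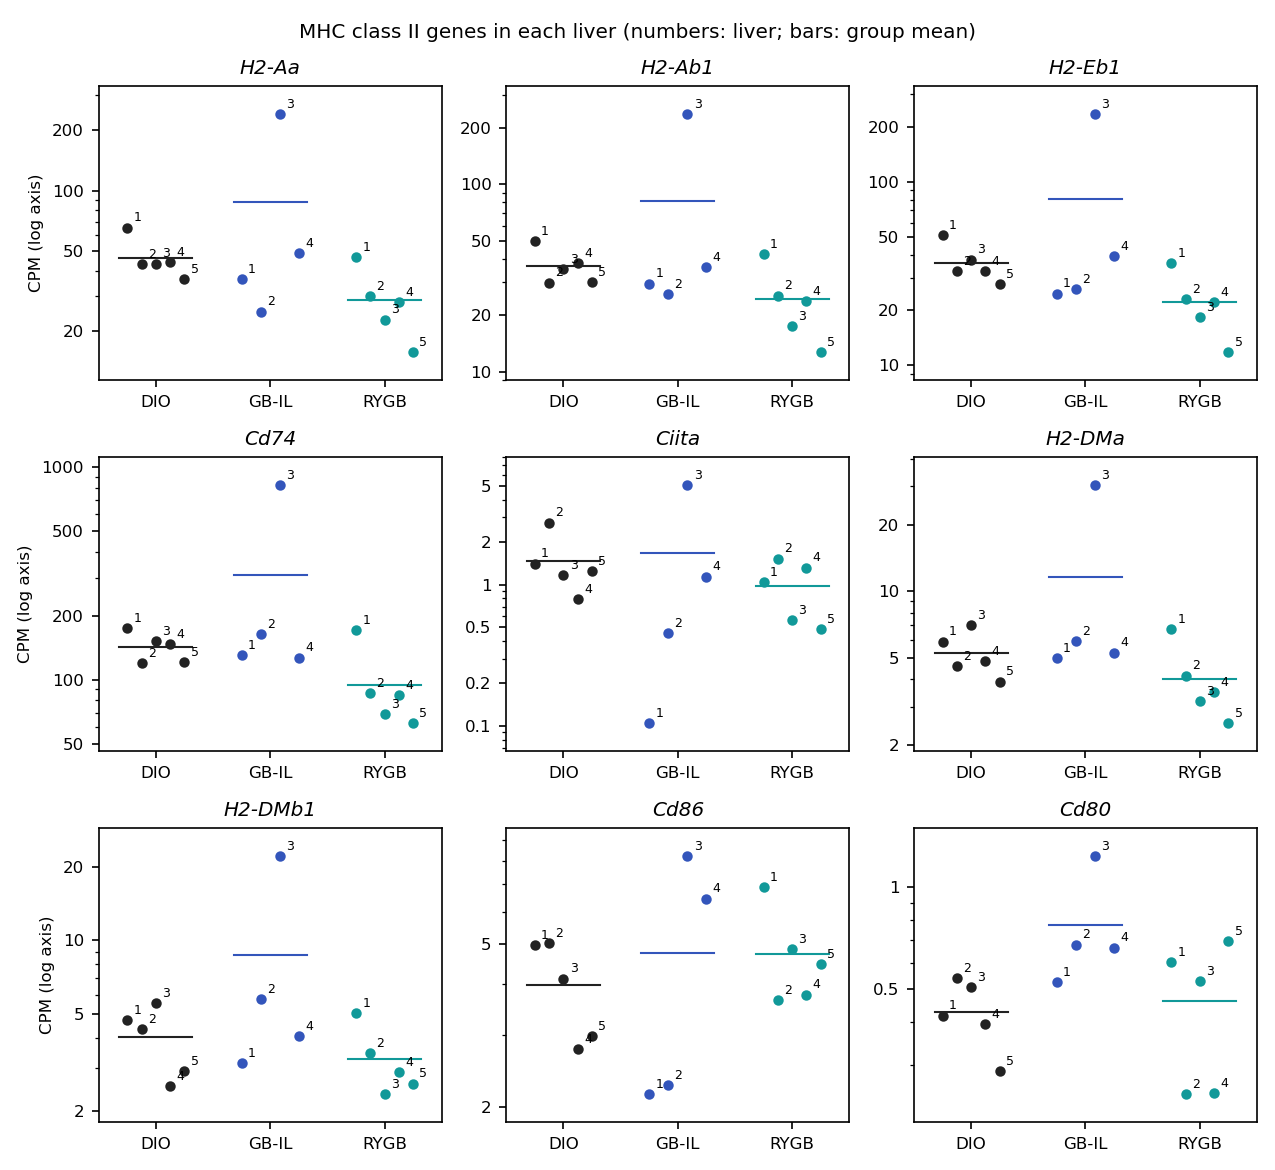
Expression of the 9 class II antigen presentation genes in each liver (CPM, logarithmic axis), with a point for each liver, numbered as in the text, and a bar for the mean of each group. GB-IL liver 3 is the highest point in all 9 panels, and the H2-Aa, H2-Ab1, H2-Eb1 and Cd74 panels show RYGB livers 2 to 5 below the DIO livers.

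Cd74, the invariant chain that occupies the peptide groove during assembly, was the most abundant of the genes (chr18:60803848-60812652, plus strand). It measured 174, 119.8, 152, 147 and 121 CPM in DIO, 130.5, 164, 819 and 127 CPM in GB-IL and 170.5, 86.2, 68.8, 84.4 and 62.6 CPM in RYGB. GB-IL livers 1, 2 and 4 were within the DIO range, RYGB liver 1 was also within it, and RYGB livers 2 to 5 were below it. The ratio of Cd74 to H2-Ab1 counts ranged from 3.39 to 6.30, and GB-IL liver 2 had the highest.

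Ciita, the class II coactivator, was expressed at a low level. Its values were 1.41, 2.76, 1.17, 0.792 and 1.25 CPM in DIO, 0.105, 0.452, 5.05 and 1.14 CPM in GB-IL and 1.04, 1.53, 0.563, 1.32 and 0.485 CPM in RYGB. The GB-IL values rest on 2, 8, 119 and 31 counts. GB-IL liver 3 was again the highest, but GB-IL livers 1 and 2 were the lowest of all 14, although their chain genes were close to the DIO livers. The ratio of H2-Ab1 to Ciita counts was accordingly 281 in GB-IL liver 1 and 10.8 to 57.6 in the other 13 livers. Liver 1 has only 2 counts behind that ratio, which is therefore imprecise.

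H2-DMa and H2-DMb1 encode the chains of the DM heterodimer, which catalyses peptide exchange. H2-DMa measured 5.91, 4.58, 7.02, 4.81 and 3.89 CPM in DIO, 4.99, 5.93, 30.2 and 5.28 CPM in GB-IL and 6.73, 4.14, 3.17, 3.48 and 2.53 CPM in RYGB. H2-DMb1 measured 4.71, 4.33, 5.55, 2.55 and 2.93 CPM in DIO, 3.15, 5.76, 22.1 and 4.06 CPM in GB-IL and 5.03, 3.45, 2.36, 2.90 and 2.60 CPM in RYGB. Outside GB-IL liver 3 the groups overlapped for both genes, and 3 RYGB livers for H2-DMa but only 1 for H2-DMb1 were below every DIO liver.

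Cd86 and Cd80, the ligands of CD28 and CTLA-4, behaved less like the chains. Cd86 measured 4.97, 5.02, 4.12, 2.77 and 2.98 CPM in DIO, 2.15, 2.26, 8.19 and 6.46 CPM in GB-IL and 6.89, 3.65, 4.86, 3.76 and 4.47 CPM in RYGB. Here GB-IL livers 3 and 4 were above every DIO liver and GB-IL livers 1 and 2 below every one. Cd80 measured 0.419, 0.541, 0.509, 0.396 and 0.288 CPM in DIO, 0.525, 0.678, 1.23 and 0.664 CPM in GB-IL and 0.601, 0.247, 0.528, 0.248 and 0.692 CPM in RYGB. Among the 9 genes it was the one for which 3 of 4 GB-IL livers were above every DIO liver. The GB-IL values rest on only 10, 12, 29 and 18 counts. The share of all genes that showed this was not counted, and genes outside the 9, such as Icosl and Cd28, showed it too. On the log2 CPM scale, r with H2-Aa fell short of that between the chains, at 0.53 for Cd86 and 0.46 for Cd80 over 14 livers and 0.26 and -0.07 over the 13 livers without GB-IL liver 3.

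Per kilobase of exon, the levels in DIO formed an order that spanned Cd74 to Cd80. Cd74 was at 85.0 ± 13.6 CPM per kb (SD, n = 5), above the range of every other gene. H2-Eb1 at 18.7 ± 4.67, H2-Ab1 at 14.2 ± 3.14 and H2-Aa at 12.2 ± 2.91 CPM per kb followed, and neighbours among these 3 overlapped in range. H2-DMb1 at 2.39 ± 0.744, H2-DMa at 1.52 ± 0.357 and Cd86 at 1.09 ± 0.291 CPM per kb came next, again with overlapping neighbours. Ciita at 0.155 ± 0.0787 and Cd80 at 0.116 ± 0.0270 CPM per kb were the lowest and overlapped. Exon length is that of all annotated exons merged, so these per-length levels depend on the annotation as well as on the reads.

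The comparison of GB-IL with DIO asked how livers of mice with bile drained to the ileum differed from those of obese mice without surgery. None of the 9 genes was called by edgeR's quasi-likelihood test at a false discovery rate (FDR, Benjamini-Hochberg) of 0.05, where 3.26% of the genes tested were called. All 9 fitted differences were above 0, with a median log2 fold change of 1.12 against 0.04 over all genes tested. H2-Ab1 was 1.16 ± 0.562 higher on the log2 scale (SE, edgeR adjusted p = 0.229), H2-Aa 0.91 ± 0.525 (adjusted p = 0.297) and H2-Eb1 1.15 ± 0.562 (adjusted p = 0.231). Cd74 differed by 1.12 ± 0.495 (adjusted p = 0.196), H2-DMa by 1.15 ± 0.488 (adjusted p = 0.181) and H2-DMb1 by 1.13 ± 0.483 (adjusted p = 0.184). Cd80 differed by 0.84 ± 0.385 (adjusted p = 0.206), Cd86 by 0.27 ± 0.380 (adjusted p = 0.669) and Ciita by 0.20 ± 0.718 (adjusted p = 0.878). Unadjusted p was below 0.05 for Cd74, H2-DMa, H2-DMb1 and Cd80, 4 of 9 genes, against 23.1% of all genes tested. The edgeR exact test called none either, where it called 7.92% of all genes. DESeq2 gave no p for 4 of the 9, Cd74, H2-DMa, H2-Eb1 and H2-Ab1, because its filter on outlying counts set them aside, and it called none of the 5 that it tested (9.11% of the genes with an adjusted p). With that filter off, a setting chosen after seeing the data, DESeq2 tested all 9 and called none (9.30% of all genes). Voom with sample quality weights called 2 of the 9, H2-DMa (adjusted p = 0.0445) and H2-DMb1 (adjusted p = 0.0392), where it called 4.13% of all genes.

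Without GB-IL liver 3 this picture turned. Of the 9 genes, 6 were then below DIO and 3 above, with a median of -0.12, none was called, where 3.99% of all genes were, and none had an unadjusted p below 0.05. In that fit the log2 fold change was -0.34 for H2-Aa, -0.26 for H2-Ab1, -0.27 for H2-Eb1, -0.02 for Cd74, -0.12 for Cd86 and -1.33 for Ciita. It was 0.04 for H2-DMa, 0.11 for H2-DMb1 and 0.53 for Cd80. The Ciita difference had an adjusted p of 0.195 in that fit of edgeR's quasi-likelihood test. GB-IL liver 3 was the highest of the 14 livers for all 9 genes, as it was for 8.65% of all genes tested. It held between 39.7% (Cd80) and 74.8% (Ciita) of the summed CPM of the 4 GB-IL livers, where the median gene had 24.9%. Its level was 6.44 times the DIO mean for H2-Ab1, 5.73 times for Cd74, 3.42 times for Ciita and 2.06 times for Cd86, the smallest ratio.

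**Figure D2:**
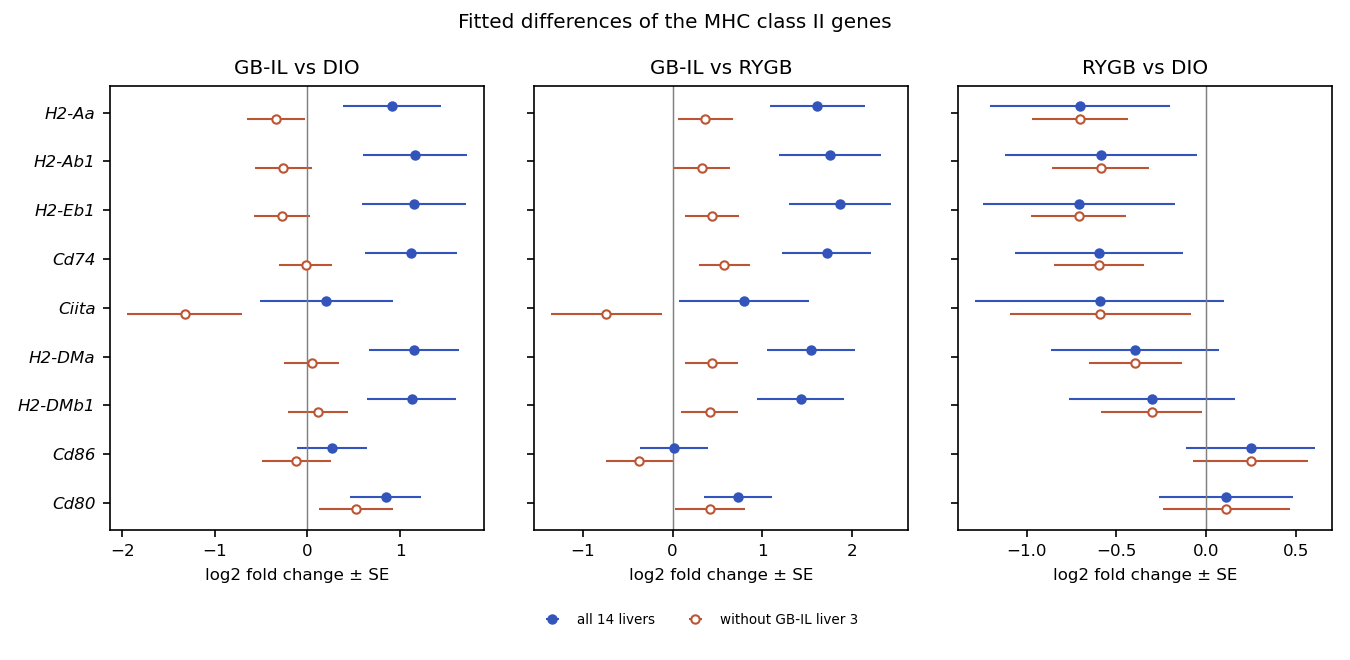
Fitted log2 fold change of each gene in the 3 comparisons, with bars of 1 SE, for all 14 livers (filled) and without GB-IL liver 3 (open). In GB-IL against DIO the H2-Aa point moves from 0.91 to -0.34, while the RYGB against DIO points stay where they were with shorter bars.

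The comparison of RYGB with DIO asked the same of gastric bypass. None of the 9 genes was called, and neither was any of the 14252 genes tested by edgeR's quasi-likelihood test (0%). The fitted log2 fold change was -0.70 ± 0.501 (SE) for H2-Aa, -0.71 ± 0.535 for H2-Eb1, -0.59 ± 0.535 for H2-Ab1 and -0.60 ± 0.469 for Cd74. It was -0.59 ± 0.694 for Ciita, -0.39 ± 0.468 for H2-DMa and -0.30 ± 0.463 for H2-DMb1. Cd86 and Cd80 were on the other side of 0, at 0.25 ± 0.359 and 0.11 ± 0.374. Adjusted p from edgeR lay between 0.721 and 0.948 over the 9 genes, and no unadjusted p was below 0.05, against 8.71% of all genes. The edgeR exact test and voom called none of the 9 either, while they called 0.309% and 11.9% of all genes. DESeq2 called none of the 5 that it tested (0.684% of genes with an adjusted p) and, with its outlier filter off, none of the 9 (0.709%). For 4 of the 9 genes, H2-Aa, H2-Ab1, H2-Eb1 and Cd74, at least 4 of the 5 RYGB livers were below every DIO liver, which 5.87% of all genes showed. The exception was RYGB liver 1, which was the highest RYGB liver for those genes. GB-IL liver 3 enters this comparison only through the shared estimate of the spread, the gene filter and the scaling. Leaving it out left the differences nearly unchanged and shortened their errors. The difference of H2-Aa was then -0.70 ± 0.268 with an unadjusted p of 0.0203 and an edgeR adjusted p of 0.484. In that fit 4 of 9 genes had an unadjusted p below 0.05, with none called, as 0% of all genes were. The share of all genes at such a p was not counted there, and the 4 genes vary together, so their number is only a description. Without GB-IL liver 4 none of the 9 was called either, with 0.0345% of all genes called.

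In the direct comparison of GB-IL with RYGB, again none of the 9 genes was called by edgeR's quasi-likelihood test, which called 0% of all genes. The differences were larger than those from DIO for 7 of the 9 genes, since RYGB values of these were below DIO. H2-Eb1 was at 1.86 ± 0.569 (edgeR adjusted p = 0.114), H2-Ab1 at 1.75 ± 0.568 (adjusted p = 0.124), Cd74 at 1.71 ± 0.499 (adjusted p = 0.107) and H2-Aa at 1.61 ± 0.530 (adjusted p = 0.127). H2-DMa was at 1.54 ± 0.491 (adjusted p = 0.119), H2-DMb1 at 1.43 ± 0.485 (adjusted p = 0.138), Ciita at 0.80 ± 0.724 (adjusted p = 0.503), Cd80 at 0.73 ± 0.377 (adjusted p = 0.262) and Cd86 at 0.02 ± 0.379 (adjusted p = 0.979). The first 6 had unadjusted p below 0.05, against 22.1% of all genes. The edgeR exact test called 5 of the 9 (4.78% of all genes), and voom called 1, Cd74 (0.807%). DESeq2 called 1, H2-Aa, of the 5 that it tested (5.96% of genes with an adjusted p). With its outlier filter off it called 5 of the 9 (6.15%), H2-Aa and the 4 that the filter had set aside, with DESeq2 adjusted p of 0.0175 for Cd74 to 0.0406 for H2-Aa. Without GB-IL liver 3 none was called or had an unadjusted p below 0.05, the share of all genes called was 0.166%, the median fell from 1.54 to 0.41, and Cd74 was at 0.58 ± 0.285 (edgeR adjusted p = 0.230). Without GB-IL liver 4, 6 of the 9 were called, where 21.5% of all genes were. In GB-IL against DIO none of the 9 was called without that liver, although 24.6% of all genes were. The comparison shares its livers with the others, so the 3 sets of values are not independent.

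The genes around the class II pathway did not move as one with its chains. Of 10 accessory and processing genes in the table, 8 could be tested, and 3 rose in GB-IL against DIO while none fell, where 3.26% of all genes were called. These were Ctss, Ctsl and Lgmn, the endosomal proteases cathepsin S, cathepsin L and legumain that trim the invariant chain and antigens. Ctss, with 36.6 to 48.2 CPM in DIO, measured 195, 158, 180.5 and 62.7 CPM in GB-IL livers 1 to 4 and differed on the log2 scale by 1.81 ± 0.280 (SE, edgeR adjusted p = 0.0278). Ctsl, with 409 to 524 CPM in DIO, measured 5199, 1999, 947 and 568 CPM in GB-IL and differed by 2.14 ± 0.460 (edgeR adjusted p = 0.0310). Lgmn, with 52.1 to 85.4 CPM in DIO, measured 256, 226, 179 and 87.8 CPM in GB-IL and differed by 1.51 ± 0.313 (edgeR adjusted p = 0.0287). All 4 GB-IL livers were above every DIO liver for the 3 proteases, which 2.67% of all genes showed, and the highest liver was GB-IL liver 1 and not liver 3. Their calls held without GB-IL liver 3 or 4 but were lost, with edgeR adjusted p of 0.0581 to 0.0942, when GB-IL liver 1 or 2 or any 1 DIO liver was left out. They were also lost in a fit of the DIO and GB-IL livers alone, with edgeR adjusted p of 0.0844 for Ctss and Lgmn and 0.107 for Ctsl. Without GB-IL liver 1 the Ctsl difference was 1.25 on the log2 scale, and voom put it at 1.13. In RYGB the log2 fold changes of Ctss, Ctsl and Lgmn from DIO were 0.10, 0.51 and 0.47, none called. All 5 RYGB livers, at 614 to 783 CPM, were nevertheless above every DIO liver for Ctsl, which 1.87% of all genes showed. Of the other class II genes in the list, H2-DMb2 and H2-Ob were tested and not called, and H2-Oa and H2-Eb2 were too low to test.

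Of 16 genes of class II transcription and interferon gamma signalling, 15 were tested, and 1 rose in GB-IL against DIO, where 3.26% of all genes were called. It was Spi1 (PU.1, a transcription factor of myeloid and B cells), at 18.0, 13.7, 24.1 and 7.27 CPM in GB-IL livers 1 to 4 against 4.52 to 8.29 CPM in DIO. Its log2 fold change was 1.46 ± 0.346 (edgeR adjusted p = 0.0365), and its call was lost without GB-IL liver 3 (1.18, adjusted p = 0.0666), without GB-IL liver 1 or 2 (adjusted p = 0.0975 and 0.0678) without any 1 DIO liver (adjusted p = 0.0621 to 0.102) and in the fit of the DIO and GB-IL livers alone (adjusted p = 0.0927). Ifngr1, a chain of the interferon gamma receptor (0.87 ± 0.303, edgeR adjusted p = 0.117), and Irf8, a factor of dendritic cells and macrophages (0.74 ± 0.281, adjusted p = 0.144), were not called. The list's median was 0.01, close to the 0.04 of all genes. Rfx5, part of the complex that binds the X box, measured 2.26, 1.19, 6.45 and 7.89 CPM in GB-IL against 5.49 to 12.4 CPM in DIO. It was therefore lowest of all 14 livers in GB-IL livers 1 and 2, as Ciita was, and it was singled out after its values were seen. Ifng itself was at 0 in 5 livers and at most 0.339 CPM, in GB-IL liver 3, and was not tested.

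**Figure D3:**
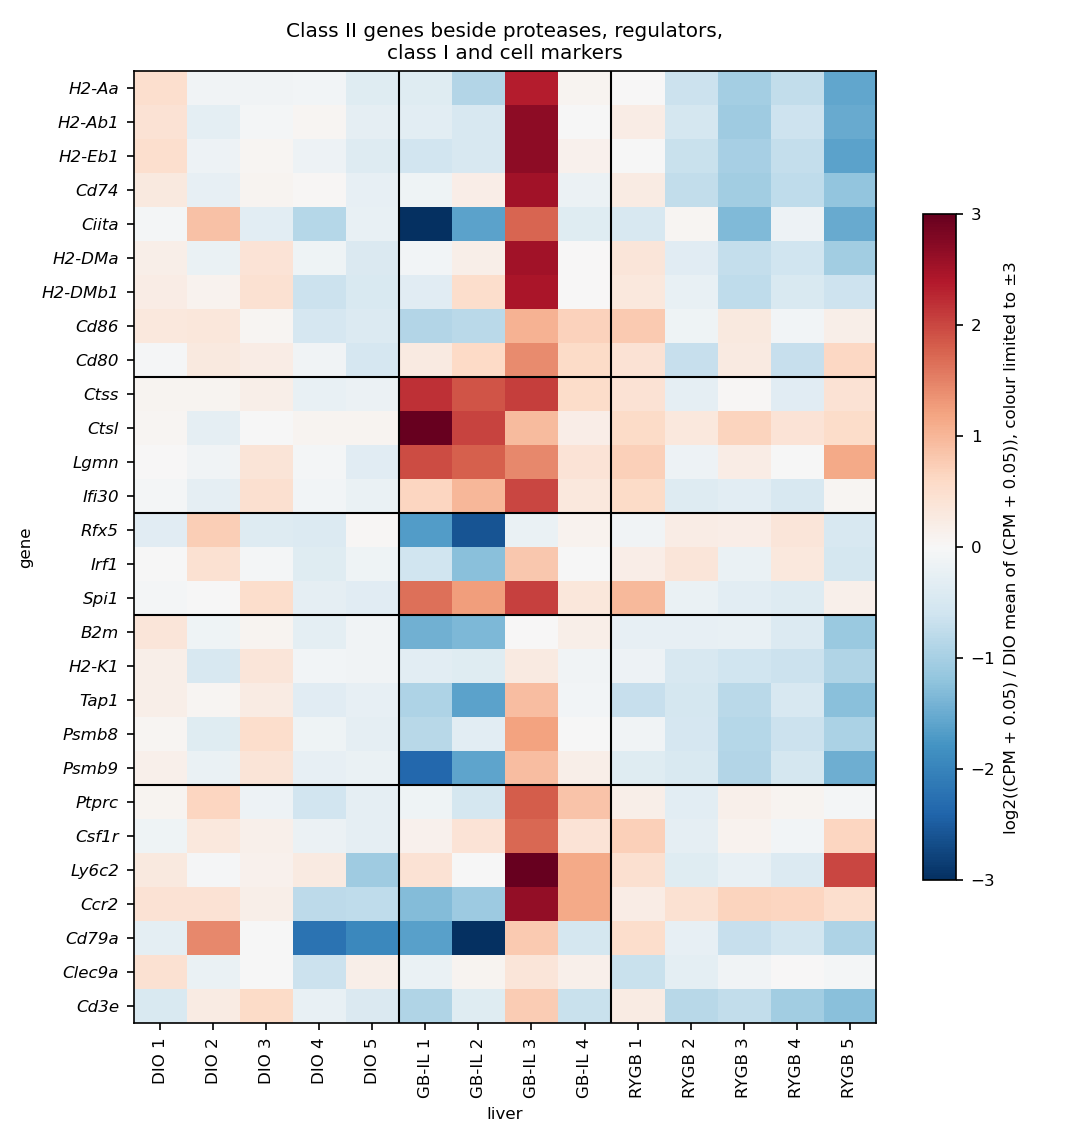
Each gene in each liver as log2 of its CPM over the DIO mean (0.05 CPM added to both, colour limited to ±3), for the 9 class II genes, proteases, transcription and interferon genes, class I genes and cell markers in turn. The 9 class II rows are darkest red in GB-IL liver 3, whereas Ctss, Ctsl and Lgmn are red in GB-IL livers 1, 2 and 3, and Ciita, Rfx5 and Psmb9 are blue in livers 1 and 2.

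Of 10 genes for other costimulatory ligands and their receptors, 5 were tested and none was called in GB-IL against DIO, with 2 at an unadjusted p below 0.05 against 23.1% of all genes. Their median log2 fold change was 0.82, and 0.23 without GB-IL liver 3. Icosl, the ligand of ICOS, had 5.31, 2.94, 3.77 and 1.25 CPM in GB-IL against 0.622 to 1.73 CPM in DIO (log2 fold change 1.37 ± 0.447, edgeR adjusted p = 0.0974). Cd28, the T cell receptor for CD80 and CD86, had 0.840, 0.904, 1.53 and 0.516 CPM against 0.339 to 0.590 CPM (0.97 ± 0.418, adjusted p = 0.184). Cd40, which receives help from T cells, had 3.05 CPM in GB-IL liver 3 and 0.508 to 1.33 CPM in the other GB-IL livers (0.82 ± 0.462, adjusted p = 0.286). The other 5 genes were too low to test, each at 0 in at least 1 liver.

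The MHC class I genes present peptides from inside the cell to CD8+ T cells. All 13 were tested and none was called in GB-IL against DIO, with 7 above 0, 6 below and a median log2 fold change of 0.16. Without GB-IL liver 3 none was called either, with 4 above 0, 9 below and a median of -0.24, beside the -0.12 of the class II genes in that fit. The smallest p belonged to Tapbp, the tapasin of the class I loading complex (0.66 ± 0.239, edgeR adjusted p = 0.129), with 136, 143, 234 and 98.9 CPM in GB-IL against 81.7 to 115 CPM in DIO. H2-D1, a class I heavy chain (0.41 ± 0.217, adjusted p = 0.258), and Calr, a chaperone (0.54 ± 0.293, adjusted p = 0.274), followed. GB-IL liver 3 was the highest liver for 8 of the 13. B2m, the shared light chain, measured 632, 678, 1736 and 1948 CPM in GB-IL against 1403 to 2222 CPM in DIO, so that here too livers 1 and 2 were the lowest of all 14. In RYGB against DIO 11 of the 13 were below 0, with a median of -0.25 and none called. B2m was named after its values were seen.

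Among markers of cells that use class II, the summed levels of macrophage and monocyte, Kupffer cell and dendritic cell markers were highest in GB-IL liver 3 and that of B cell markers was not, and their part in the results was not tested. Ptprc, the common antigen of leukocytes, was at 38.5 CPM in that liver, 7.51 to 19.8 CPM in the other GB-IL livers, 7.24 to 16.9 CPM in DIO and 8.78 to 12.4 CPM in RYGB. The 12 macrophage and monocyte markers summed to 390 to 573 CPM in DIO, 336 to 715 CPM in RYGB and 577 to 1612 CPM in GB-IL. GB-IL liver 3 had the highest sum and was the highest liver for 7 of the 12. In GB-IL against DIO, 4 of them rose, Cd68, Lyz2, C1qb and C1qc, where 3.26% of all genes were called. Without GB-IL liver 3 the calls of Cd68 and Lyz2 remained, where 3.99% of all genes were called. The monocyte genes Ly6c2 and Ccr2 were at 11.7 and 9.58 CPM in that liver and at most 1.97 and 3.32 CPM in any other. The 6 Kupffer cell markers summed to 288 to 534 CPM in DIO, 289 to 782 CPM in RYGB and 288 to 1497 CPM in GB-IL, all 6 highest in liver 3, and 1 was called, Marco, whose call was lost without that liver.

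Of the 10 dendritic cell markers 8 were tested and none was called, and their sum was 14.4 to 21.1 CPM in GB-IL, 10.1 to 17.2 CPM in DIO and 11.4 to 16.1 CPM in RYGB. GB-IL liver 3 was the highest liver for 3 of the 10, with Cd209a at 0 there. Of the 8 B cell markers 6 were tested and none was called, and GB-IL liver 3 was the highest liver for 0 of the 8. Their sum was 2.65 to 10.8 CPM in GB-IL, 2.40 to 19.2 CPM in DIO and 3.84 to 9.08 CPM in RYGB, with Ms4a1 and Pax5 at 0 in GB-IL liver 2. The 8 T cell markers, 6 tested and none called, were 13.4 CPM in sum in GB-IL liver 3, 2.57 to 4.24 CPM in the other GB-IL livers, 5.29 to 7.69 CPM in DIO and 1.77 to 6.56 CPM in RYGB. The 6 neutrophil markers summed to 5.29 to 10.3 CPM in DIO and at most 74.2 CPM in RYGB. In GB-IL they summed to 6.31 to 270.0 CPM, highest in liver 3. S100a8, S100a9, Cxcr2 and Retnlg were called higher in GB-IL than in DIO (3.26% of all genes called) but not without liver 3 (3.99%). The median log2 fold change of the 5 neutrophil markers tested was 4.80, and 4.00 without that liver. All 5 were above 0 and at an unadjusted p below 0.05 in both fits, against 23.1% of all genes in the fit of all livers. Without GB-IL liver 3 the median was 0.09 for the dendritic cell markers (0.18 with it), -1.25 for B cell markers (-0.46) and -0.66 for T cell markers (0.01), none called. All calls of these markers in GB-IL against DIO were lost without GB-IL liver 1 or 2, as no gene was called then.

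The 5 cholangiocyte markers summed to 218 CPM in GB-IL liver 3, below livers 1 and 2 (318 and 258 CPM) and above DIO (30.2 to 65.6 CPM). GB-IL liver 4, at 57.8 CPM, was within the DIO range. Krt19, Krt7 and Spp1 were called with GB-IL liver 3 (3.26% of all genes called) and without it (3.99%). The 6 stellate cell markers summed to 181 CPM in GB-IL liver 3, the lowest of the 14, and Des was called with and without it, at 243 CPM in GB-IL liver 1. The 6 sinusoidal endothelial markers summed to 234 CPM in GB-IL liver 3, within the 188 to 252 CPM of GB-IL, with none called. The 8 hepatocyte markers, led by Alb at 57307 to 116614 CPM, marked every library as liver. Their sum was lowest in GB-IL liver 3, at 94105 CPM against 121383 to 150527 CPM in DIO, with none called in either fit.

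Set against Ptprc, GB-IL liver 3 was the highest of the 14 livers for H2-Aa and H2-Ab1 but not for Cd74. The ratio of H2-Aa to Ptprc counts was 6.21 in that liver, 2.47 to 3.65 in the other GB-IL livers, 2.55 to 6.07 in DIO and 1.50 to 3.77 in RYGB. For H2-Ab1 it was 6.12 in liver 3, 1.82 to 3.47 in the other GB-IL livers, 1.76 to 5.22 in DIO and 1.21 to 3.44 in RYGB. For Cd74 the ratio was 21.3 in liver 3 and 21.8 in GB-IL liver 2, with 7.08 to 20.3 in DIO and 5.70 to 13.8 in RYGB. The ratio of H2-Ab1 to Csf1r, the receptor of macrophage growth factor, was 1.01 in liver 3 and 0.277 to 0.386 in the other GB-IL livers, 0.339 to 0.765 in DIO and 0.116 to 0.436 in RYGB. Cd86 against Ptprc gave the reverse position, 0.213 in liver 3, the lowest of the 14 livers, though GB-IL liver 1 was close at 0.217. GB-IL livers 2 and 4 were at 0.301 and 0.326, DIO at 0.297 to 0.434 and RYGB at 0.326 to 0.558. These ratios are descriptions of single libraries.

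**Figure D4:**
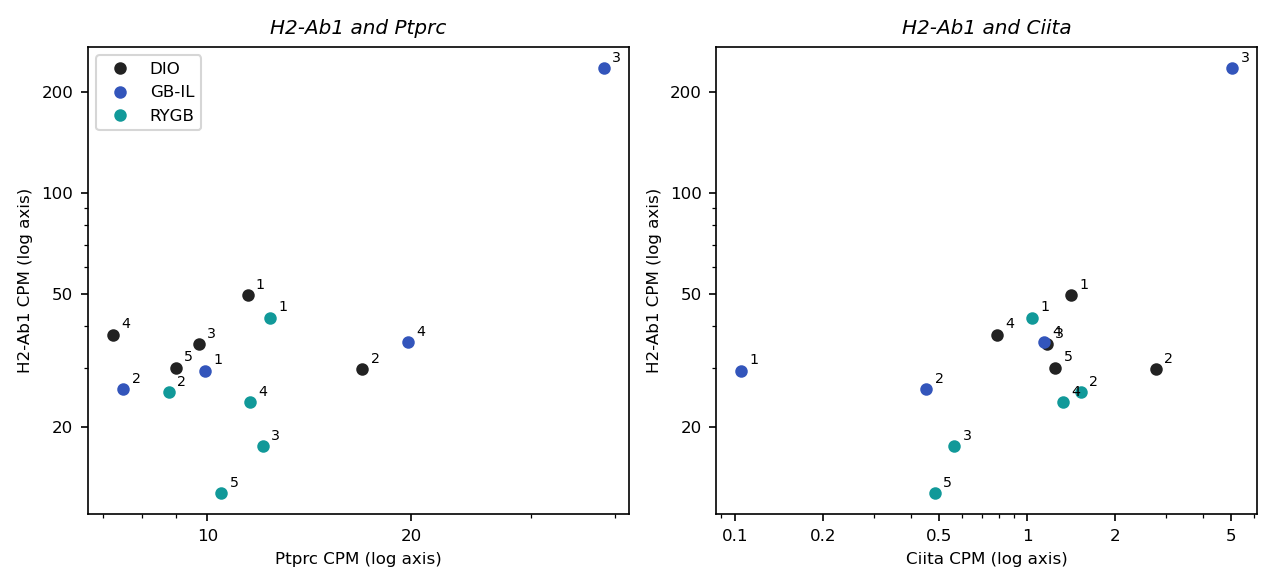
H2-Ab1 against Ptprc (left) and against Ciita (right) in each of the 14 livers, in CPM on logarithmic axes, with a point for each liver coloured by group and numbered. GB-IL liver 3 is at the upper right of both panels, at 236 CPM of H2-Ab1, and GB-IL livers 1 and 2 are at the left of the Ciita panel with H2-Ab1 at 29.5 and 26.0 CPM.

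The genes whose pattern over the 14 livers was most like that of the class II genes were sought by Pearson's r between log2 CPM and the mean z-score of the 9 genes. Slamf8, a SLAM family receptor of myeloid cells, came first (r = 0.975), followed by Pla2g16, a phospholipase (r = 0.942), Ubd, a ubiquitin-like protein inducible by interferon gamma (r = 0.938), Ly9, another SLAM family receptor (r = 0.926), and Psmb8, an immunoproteasome subunit (r = 0.909). With the group means removed and GB-IL liver 3 kept, r was 0.974, 0.934, 0.932, 0.960 and 0.919 in that order. That liver is far from its group mean, so these values cannot show a likeness within groups apart from it. GB-IL liver 3 carried part of the likeness, since over the 13 other livers, with group means kept, r was 0.891, 0.732, 0.754, 0.741 and 0.833. Slamf8 kept the first place without that liver, and Psmb8 the fifth. Ubd was at 43.6 CPM in GB-IL liver 3 and 0.207 to 1.99 CPM in the other 13 livers, and Slamf8 was at 7.04 CPM against 0.493 to 1.44 CPM. None of the 5 was called in GB-IL against DIO by edgeR's quasi-likelihood test, with adjusted p of 0.0816 for Ubd and 0.130 to 0.687 for the others.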

How the data were processed

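RNA was taken from 14 mouse livers, 5 DIO, 4 GB-IL and 5 RYGB, grouped by their titles, and sequenced as bulk libraries. The deposited values are raw read counts per gene, which the authors made by alignment with TopHat 2 to mm10 and counting with HTSeq. Its strand setting was not given in the sources used here. All 25212 rows were used as deposited; 577 had no count, and 24701 matched an Ensembl ID of GENCODE M21, the source of the positions and exon lengths.

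In 1 fit of all 14 livers, genes were kept by filterByExpr (14252), scaled by TMM and tested with edgeR 4.0.16 (glmQLFit, glmQLFTest, R 4.3.3) for the 3 pairwise comparisons, with Benjamini-Hochberg adjustment over all genes tested and an FDR of 0.05. CPM uses the TMM-scaled library size, and log2 CPM a pseudocount of 0.5 counts. As alternatives, the scaling was changed to RLE or upper quartile, and the others were DESeq2 1.42.0, the edgeR exact test, voom with sample quality weights (limma 3.58.1), no filter, a mean of at least 50 counts, only the groups compared, a replicate block and leaving out each liver. DESeq2 without its Cook's distance filter was added after seeing the data.

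The members and gene lists were chosen with earlier results of these data known. Named were all 9 members, from each pathway list the 3 genes with the smallest p in GB-IL against DIO and any called gene of a list with 5 or fewer, and the 5 genes most like the members; genes outside this rule are marked as such or are cell markers. The replicates are separate mice.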

Additional observations from a re-analysis of the deposited data

Results flagged for a closer look

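A liver was set apart here where its gap to the nearest other liver of its group was large against the group's whole range (Dixon's test at the 95% level). Of 78 combinations of gene and group examined over 26 genes, 16 met this. Chance gives about 1 in 20 where values are independent, which these are not: the class II genes vary together, and Slamf8, Pla2g16 and Ubd were chosen for their likeness to them, so the count supports nothing. In 9 of the 16 the liver was GB-IL liver 3, always the highest. It had 239 CPM of H2-Aa, 236 CPM of H2-Ab1, 233 CPM of H2-Eb1, 819 CPM of Cd74, 30.2 CPM of H2-DMa and 22.1 CPM of H2-DMb1. It also had 7.04 CPM of Slamf8, 16.9 CPM of Pla2g16 and 43.6 CPM of Ubd.

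Ciita, Cd86 and Cd80, though highest in the same liver, were not set apart in GB-IL. RYGB liver 1 was set apart for Cd74 at 170.5 CPM, for Spi1 at 11.4 CPM and for Tapbp at 130.2 CPM. DIO liver 1 was set apart for H2-Aa at 65.4 CPM. DIO liver 2 was the low liver for Ctsl, at 409 CPM. For Ifngr1, GB-IL liver 4 was low at 24.7 CPM, with the other GB-IL livers at 43.1 to 46.1 CPM, and RYGB liver 5 was high at 60.9 CPM.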

How the results depend on the processing

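No class II gene was called in RYGB against DIO under any alternative run. In GB-IL against DIO the number called was 0 except under voom with sample quality weights, where it was 2 (H2-DMa and H2-DMb1). In GB-IL against RYGB it was 1 under DESeq2 (H2-Aa, of the 5 genes with a p), 5 under DESeq2 with its outlier filter off, 5 under the edgeR exact test (in both, Cd74, H2-Aa, H2-DMa, H2-Eb1 and H2-Ab1) and 1 under voom (Cd74). Leaving out 1 liver at a time gave 0 to 6 in GB-IL against RYGB, with 6 when GB-IL liver 4 was left out, and 0 to 0 in the other comparisons. Scaling by RLE or upper quartile moved the median of all genes by less than 0.1 on the log2 scale and turned no member's direction.

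The change that turned most directions was leaving out GB-IL liver 3. In GB-IL against DIO, H2-Aa was then at -0.34, H2-Ab1 at -0.26, H2-Eb1 at -0.27, Cd74 at -0.021, Ciita at -1.33, Cd86 at -0.12 and Psmb8 at -0.35, and in GB-IL against RYGB, Ciita was at -0.74, Cd86 at -0.37 and Cd40 at -0.13. Cd86 in GB-IL against RYGB, at 0.02, also turned to -0.015 with no filter, -0.0015 without DIO liver 2, -0.16 without GB-IL liver 4, and -0.080, -0.053 and -0.023 without RYGB livers 2, 4 and 5. In RYGB against DIO, Cd80 turned to -0.0030 under voom, -0.0016 without DIO liver 5 and -0.078 without RYGB liver 5, Spi1 to -0.17 without RYGB liver 1, and Calr to -0.014, -0.038 and -0.056 without DIO liver 2, RYGB liver 2 and RYGB liver 3. Over the livers left out 1 at a time, the highest values of the same results were 1.19, 1.43, 1.43, 1.37, 0.57 and 0.49 for H2-Aa, H2-Ab1, H2-Eb1, Cd74, Ciita and Cd86 in GB-IL against DIO. They were 0.27, 0.31 and 0.24 for Cd80, Spi1 and Calr in RYGB against DIO, and 1.16, 0.25 and 0.82 for Ciita, Cd86 and Cd40 in GB-IL against RYGB. Beyond what leaving out a liver shows by itself, the cause was not tested.

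The replicate numbers in the labels did not pair the livers: same-numbered livers of different groups had correlations of -0.36 to 0.37 over genes (13 pairs), other pairs -0.41 to 0.44, and 1 liver matched its own number best. With a replicate block 0 members were called in each of the 3 comparisons, Ciita turned to -0.38 in GB-IL against DIO and Cd86 to -0.10 in GB-IL against RYGB, and Ctss, Ctsl, Lgmn and Spi1 had edgeR adjusted p of 0.0677, 0.106, 0.0716 and 0.0820. Ciita and Cd80 rest on few reads, and neither passed the filter on a mean of at least 50 counts. The 4 GB-IL livers, of which liver 3 stands apart for the class II genes, limit the precision of both GB-IL comparisons. Over all genes liver 4 mattered too, since leaving it out raised the number called in GB-IL against DIO from 465 to 3572.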
